A study of Mus musculus with 6 samples.

Results

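The 62 genes described here were at least 4-fold less abundant after FGF8 pretreatment than in untreated cells on each of the 3 days sampled in a line of mouse brown preadipocytes. They were selected on the measured values themselves: the counts of each library were divided by its size factor, which adjusts for sequencing depth, and a gene was taken when log2 of (FGF8 + 1) over (untreated + 1) was at most -2 on every one of the labelled days 0, 3 and 7. Of 26264 gene symbols listed, 13256 passed a filter on low values (an average of 20 or more normalized counts per library), and 62 of these (0.468%) met the rule. No gene met the mirrored rule of a 4-fold higher value on all 3 days. Because the rule used the difference between FGF8 and untreated cells on every day, the size and direction of that difference in the 62 genes are descriptions and were not tested.

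The study asked what a short exposure of preadipocytes to a fibroblast growth factor leaves behind in the adipocytes formed later. Cells of the stromal vascular fraction of interscapular brown fat from wild-type C57BL/6N mice (labelled Bl6N) had been immortalized with a retrovirus carrying SV40 large T antigen and selected with puromycin, and the labels give this 1 line for all 6 libraries. The cells were left untreated, or received FGF8 at 5.5 nM for 48 h, and were then harvested (day 0) or were differentiated with 2 days of induction and harvested at the labelled day 3 or day 7. The controls are untreated in the labels and vehicle-treated in the methods, the growth protocol stored with the samples speaks of primary white cells, and the label of the last time point counts days on differentiation medium, which the study places 9 days after the pretreatment. Each of the 6 conditions was 1 library, so no value here has a replicate and no difference has a replicate check. Intervals given with ratios are 95% exact (Clopper-Pearson) intervals on the 2 counts, and cover counting error only.

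FGF8 is a secreted growth factor that binds FGF receptors on stromal cells and signals chiefly through the RAS and ERK kinase cascade. Preadipocytes are fibroblast-like cells that build and remodel the matrix around fat lobules, secrete complement proteins, chemokines and growth factor antagonists, and respond to interferon. Many of the genes described here encode such products: complement proteases coat and cleave targets at cell surfaces, WNT ligands and their antagonists tune the decision to become a fat cell, and p200-family proteins sense DNA in cells exposed to interferon.

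The libraries held between 16403254 and 38551551 counts. Both day 0 libraries stood apart from the other 4. Xist, the RNA that coats the inactive X chromosome, had 3716 normalized counts at day 0 without and 7473 with FGF8, but between 7.02 and 21.1 in the libraries of days 3 and 7, while the Y-linked genes Ddx3y, Uty, Kdm5d and Eif2s3y were present in all 6 libraries. Ifi202b, a p200-family gene, had 15439 and 7311 normalized counts in the day 0 libraries and at most 0.702 later, and Gbp2b had 7105 and 1197 against at most 1.27. The 2 libraries of a day were alike in holding or lacking these transcripts, but the levels of Xist, Ifi202b and Gbp2b differed between the 2 day 0 libraries. Changes from day 0 to a later day cross this divide. Whether the day 0 difference between treatments holds part of it was not tested. Whether the day 0 libraries came from the same line or strain as the others was not settled by the labels or these values, and such a difference cannot be told apart from the change over days. Without the day 0 libraries, with size factors and the filter recomputed on the 4 that remain, 149 genes were at least 4-fold lower on days 3 and 7, of which 60 belonged to the 62, the exceptions being Bmp4 and Sectm1a.

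Lists of cell markers were read beside these results, and their part in them was not tested. The stromal identity list, with Pdgfra as its defining gene, was expressed in every library, with summed levels of 229696, 83495 and 85097 normalized counts in untreated cells on days 0, 3 and 7 and 168779, 35788 and 33596 after FGF8. Interstitial progenitor markers summed to 144984, 101439 and 102899 normalized counts untreated and 211760, 27584 and 23702 after FGF8. Most of each of these sums was the matrix gene Fn1, with 122503, 83538 and 90882 untreated and 201673, 21691 and 20180 after FGF8. The progenitor sums, with their higher FGF8 value on day 0, thus chiefly follow Fn1. The sums of both lists were lower after FGF8 on days 3 and 7, as the 62 genes were, and they include Ly6a and Ly6c1 of the set. Brown adipocyte markers summed to 1736 normalized counts in untreated and 2755 in FGF8 cells on day 0, to 296288 and 563577 on day 3 and to 587388 and 686593 on day 7, so the day 3 FGF8 library held more adipocyte transcripts than its control. Of 20 macrophage markers, 5 passed the filter, with sums of 445 to 668 in untreated and 348 to 456 in FGF8 cells, and Adgre1, C1qa, C1qb and C1qc were at 0 counts in all 6 libraries. In bulk RNA, fewer cells of a kind and less RNA per cell cannot be told apart.

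Promoters of 38 of the 62 genes were found in the RefSeq promoter table (GRCm38.p6), which holds 250 bases before and 50 bases after each start, as 41 sequences. The motif shown here is the core of the interferon-stimulated response element, the letters GAAANNGAA, read on both strands. It was present in 8 of the 41 promoters, namely those of Gm12185, Ifi205, Ifi208, Ifi213, Mmp27, Sema3d, Slfn5 and Tgtp2. The 6 sequences below are the 250 bases before the start of 5 interferon-inducible genes and 1 matrix metalloproteinase, whose levels or differences are given later. The promoters of Ifi205 and Sema3d, which also hold the motif, are not printed. Located by exact match in GRCm39, they lie at chr1:173500981-173501230 on the plus strand (Ifi208), chr1:173426839-173427088 on the minus strand (Ifi213), chr11:48955040-48955289 on the minus strand (Tgtp2), chr11:48818010-48818259 on the minus strand (Gm12185), chr11:82842678-82842927 on the plus strand (Slfn5) and chr9:7571147-7571396 on the plus strand (Mmp27). Capitals mark each match to the motif or to its reverse complement, and each sequence is written 5′ to 3′ on the strand of its gene.
Ifi208: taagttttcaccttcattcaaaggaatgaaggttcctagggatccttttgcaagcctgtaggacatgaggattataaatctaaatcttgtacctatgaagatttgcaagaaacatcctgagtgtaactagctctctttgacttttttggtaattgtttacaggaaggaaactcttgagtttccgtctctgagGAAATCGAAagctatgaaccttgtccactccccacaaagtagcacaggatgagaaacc
Ifi213: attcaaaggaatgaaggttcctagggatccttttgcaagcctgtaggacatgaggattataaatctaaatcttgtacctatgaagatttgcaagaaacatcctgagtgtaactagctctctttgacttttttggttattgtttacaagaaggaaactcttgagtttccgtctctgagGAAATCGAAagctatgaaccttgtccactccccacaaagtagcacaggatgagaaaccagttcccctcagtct
Tgtp2: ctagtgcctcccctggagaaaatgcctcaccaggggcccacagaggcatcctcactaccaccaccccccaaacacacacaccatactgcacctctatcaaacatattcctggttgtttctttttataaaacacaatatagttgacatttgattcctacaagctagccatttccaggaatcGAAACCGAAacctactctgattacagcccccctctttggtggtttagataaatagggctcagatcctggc
Gm12185: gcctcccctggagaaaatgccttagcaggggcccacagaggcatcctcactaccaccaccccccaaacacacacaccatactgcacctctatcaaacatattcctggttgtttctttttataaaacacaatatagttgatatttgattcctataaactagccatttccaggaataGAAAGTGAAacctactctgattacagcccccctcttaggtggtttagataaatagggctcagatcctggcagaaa
Slfn5: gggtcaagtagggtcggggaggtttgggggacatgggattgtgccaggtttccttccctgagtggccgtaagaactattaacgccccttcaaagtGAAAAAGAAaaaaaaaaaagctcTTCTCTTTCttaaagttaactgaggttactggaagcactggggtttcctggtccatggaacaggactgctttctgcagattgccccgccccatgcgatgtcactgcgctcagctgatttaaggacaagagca
Mmp27: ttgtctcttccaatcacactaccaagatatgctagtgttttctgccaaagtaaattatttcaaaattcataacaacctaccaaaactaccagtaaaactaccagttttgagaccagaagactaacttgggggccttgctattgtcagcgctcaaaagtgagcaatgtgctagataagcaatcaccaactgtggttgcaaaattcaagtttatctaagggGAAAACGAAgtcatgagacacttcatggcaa

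The Ifi208 and Ifi213 sequences were the same at 233 of 235 aligned bases (99.1%), and those of Tgtp2 and Gm12185 at 236 of 245 (96.3%), so the matches of each pair are not separate observations. The match began 58 bases before the start in Ifi208, 73 in Ifi213, 70 in Tgtp2, 75 in Gm12185 and 31 in Mmp27, while the Slfn5 promoter held matches on both strands, beginning 155 and 132 bases before the start. A match is a description of letters, not of a bound site, and the motifs were picked after the genes were known.

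**Figure D1:**
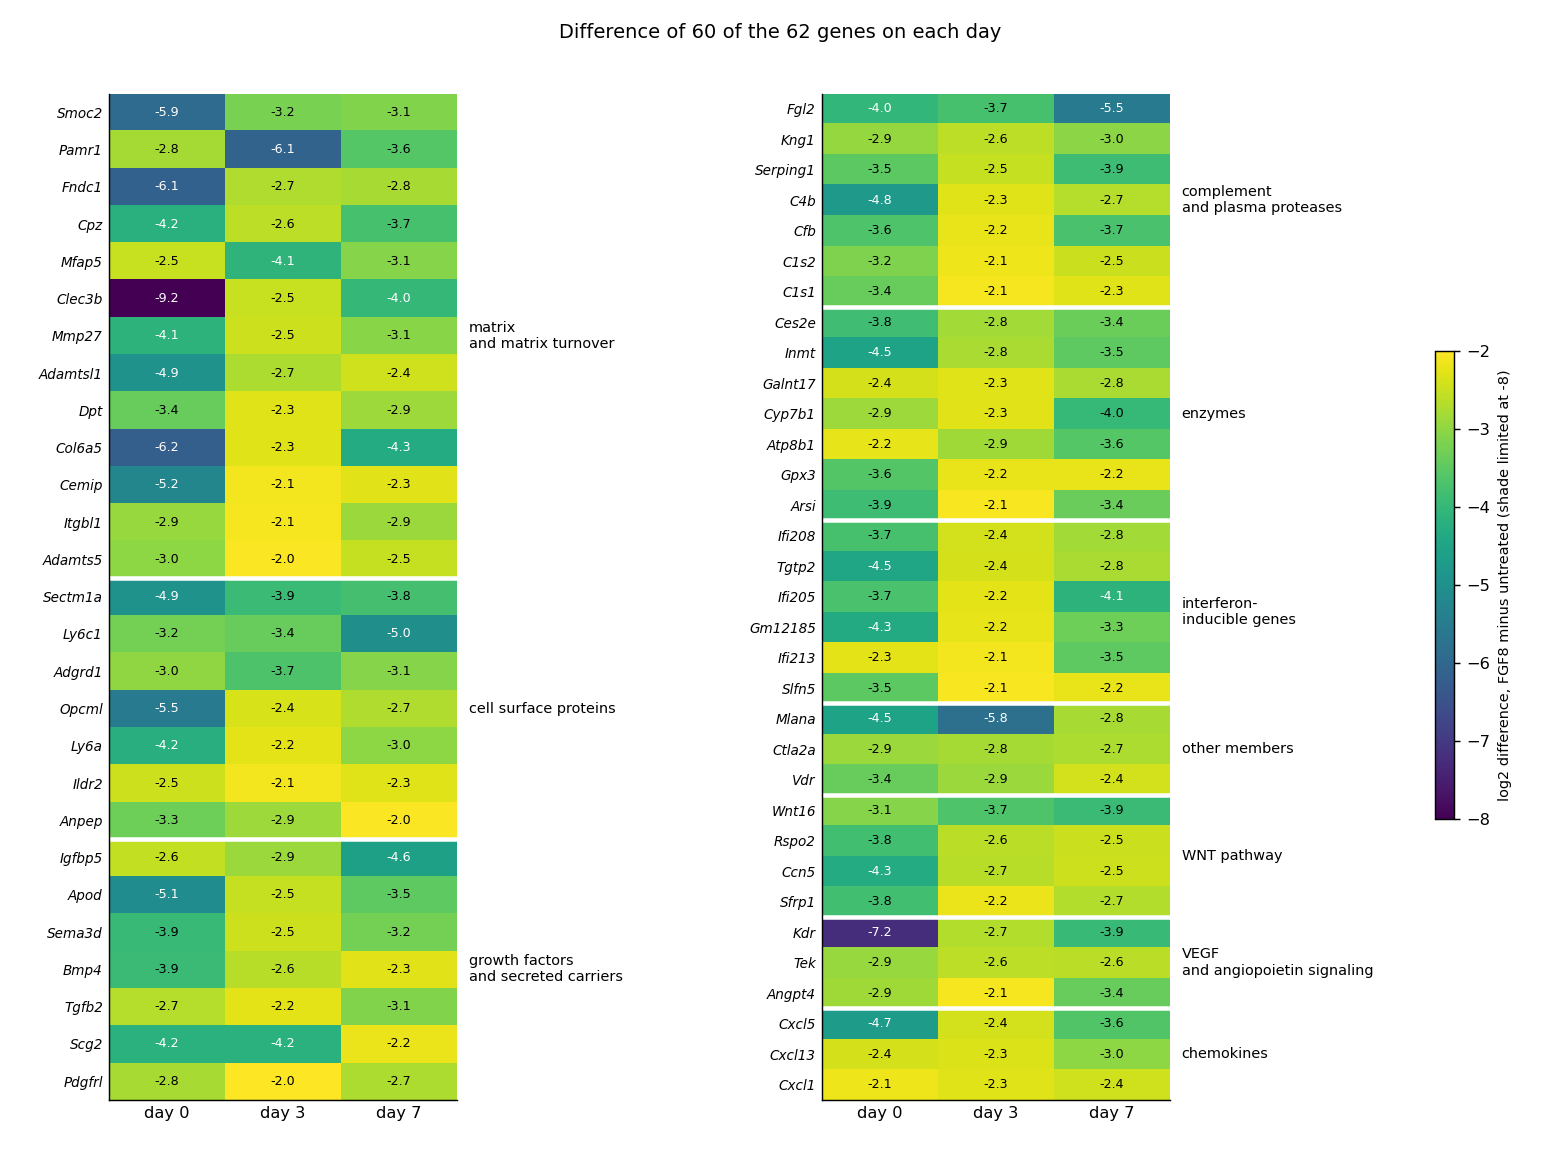
Difference of 60 of the 62 genes on each day, as log2 of (FGF8 + 1) minus log2 of (untreated + 1) normalized counts, with 1 library per condition, grouped by what the genes are known to do. Darker cells are lower values (the shade stops at -8). The day 3 column is the palest, and over all 62 genes the median was -2.46, against -3.73 on day 0 and -3.03 on day 7.

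The median difference of the 62 genes was -3.73 on day 0, -2.46 on day 3 and -3.03 on day 7, on the log2 scale, where the median of all genes tested lay at 0.043, 0.073 and 0.074. Day 0 held the largest drop for 41 of the genes, day 7 for 16 and day 3 for 5, and day 3 held the smallest drop for 43. Of all genes tested, 597 (4.5%) were at least 4-fold lower on day 0, 306 (2.31%) on day 3 and 410 (3.09%) on day 7. The 62 genes made up 10.4% of the day 0 set, 20.3% of the day 3 set and 15.1% of the day 7 set. Days 3 and 7 had 151 such genes in common (1.14% of those tested), 49.3% of the day 3 set and 36.8% of the day 7 set, days 0 and 7 had 169 in common, 28.3% and 41.2% of their sets, and days 0 and 3 had 95, 15.9% and 31.0% of theirs. Of the other 535 genes that were 4-fold lower on day 0, the median difference was -1.15 on day 3 and -1.07 on day 7, and 95 of them were higher after FGF8 on day 3.

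Depth set how well each value is known. The whole interval lay past a 4-fold drop for 54, 40 and 51 of the 62 genes on days 0, 3 and 7, and for 35 it did so on every day. In 25 genes at least 1 FGF8 library had fewer than 10 counts, and in 6 genes an FGF8 library had none. With those 6 set to a floor of 3 counts, the median of day 0 moved from -3.73 to -3.56, and those of days 3 and 7 did not move. In 50 of the genes each FGF8 library lay below each untreated library, as it did in 5.36% of all genes tested. In the 12 exceptions an FGF8 value reached the untreated value of another day, and they included Arsi, C4b, Cfb, Cpz, Ctla2a, Cxcl13, Ifi213, Igfbp5, Itgbl1, Mfap5 and Pdgfrl. Among the libraries of days 3 and 7 alone, 61 of the 62 did not overlap (21.3% of all genes), with Cxcl13 as the exception.

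Values near the threshold show where the set ends. Just inside were Pdgfrl, whose smallest drop was -2.02, Adamts5 and Anpep at -2.03, and Arsi and Slfn5 at -2.06. Just outside were P4ha3 at -1.995, C1ra, Fbln7 and Nmnat2 at -1.99, and Ogn at -1.98. Within 0.1 of the threshold there were 9 genes inside and 14 outside, so membership of genes at this edge rests on small differences. C1ra, the complement protease that activates C1s, illustrates it with differences of -3.14, -1.99 and -2.80.

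Complement proteins and plasma proteases held C1s1, Cfb and C4b, which were among the genes of the set with the highest levels per kilobase of exon. C1s1 (chr6:124507297-124559389), which encodes a serine protease of the first complement component, had 27108, 23741 and 10985 normalized counts in untreated cells on days 0, 3 and 7 and 2566, 5619 and 2242 after FGF8. Its untreated level was lowest on day 7, and the FGF8 libraries lay below each untreated one, with a drop of 4.23-fold (interval 4.12 to 4.34) on day 3, the smallest of the 3. C1s2, a close copy nearby, had 76.4, 112 and 117 normalized counts untreated and 7.68, 24.6 and 20.3 after FGF8. Its differences were -3.16, -2.14 and -2.47 log2, at a far lower level per kilobase. C4b (chr17:34947354-34962912), the complement component cleaved by C1s, had 1000.3, 13183 and 28059 normalized counts untreated and 35.8, 2679 and 4441 after FGF8. Both treatments were far higher on days 3 and 7 than on day 0, so the day 3 and day 7 FGF8 values exceeded the untreated value of day 0 even though each day's pair differed by -4.76, -2.30 and -2.66 log2. Cfb (chr17:35074852-35081559), the protease of the alternative pathway, had 2179.8, 17618 and 19818 normalized counts untreated and 173, 3806 and 1512 after FGF8. In untreated cells Cfb was slightly higher on day 7 than on day 3, while in FGF8 cells it was lower on day 7 than on day 3, and the drop was 4.63-fold (interval 4.49 to 4.78) on day 3 and 13.1-fold (interval 12.5 to 13.7) on day 7.

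Serping1, the inhibitor of C1s and of plasma kallikrein, had 5025, 1942 and 4778 normalized counts untreated and 438, 338 and 328 after FGF8. The untreated level was lowest on day 3, and no FGF8 library reached them. Fgl2, a fibrinogen-like protein with prothrombinase activity, had 1709.8, 437 and 159.7 normalized counts untreated and 104, 31.6 and 2.44 after FGF8. Its day 7 drop, the largest of any of the 62 genes on that day, was 65.5-fold (interval 22.1 to 319.9) and rests on 3 counts in the FGF8 library. Kng1, the precursor of bradykinin, differed by -2.95, -2.61 and -3.04 log2 on days 0, 3 and 7 from at most 107 normalized counts. Of 18 complement genes tested in all, 11 were at least 4-fold lower on day 0, 8 on day 3 and 11 on day 7. Of all genes, 4.5%, 2.31% and 3.09% were. The 5 complement genes of the set are in each of these counts by the rule. The list medians were -3.08, -1.91 and -2.37. C3, the central complement component and the most abundant of the list, lay outside the set, with differences of -3.75, -1.36 and -2.78. C1s1 and C1s2 lie 42.2 kb apart with 1 tested gene between them, and C4b and Cfb 112 kb apart with 4.

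**Figure D2:**
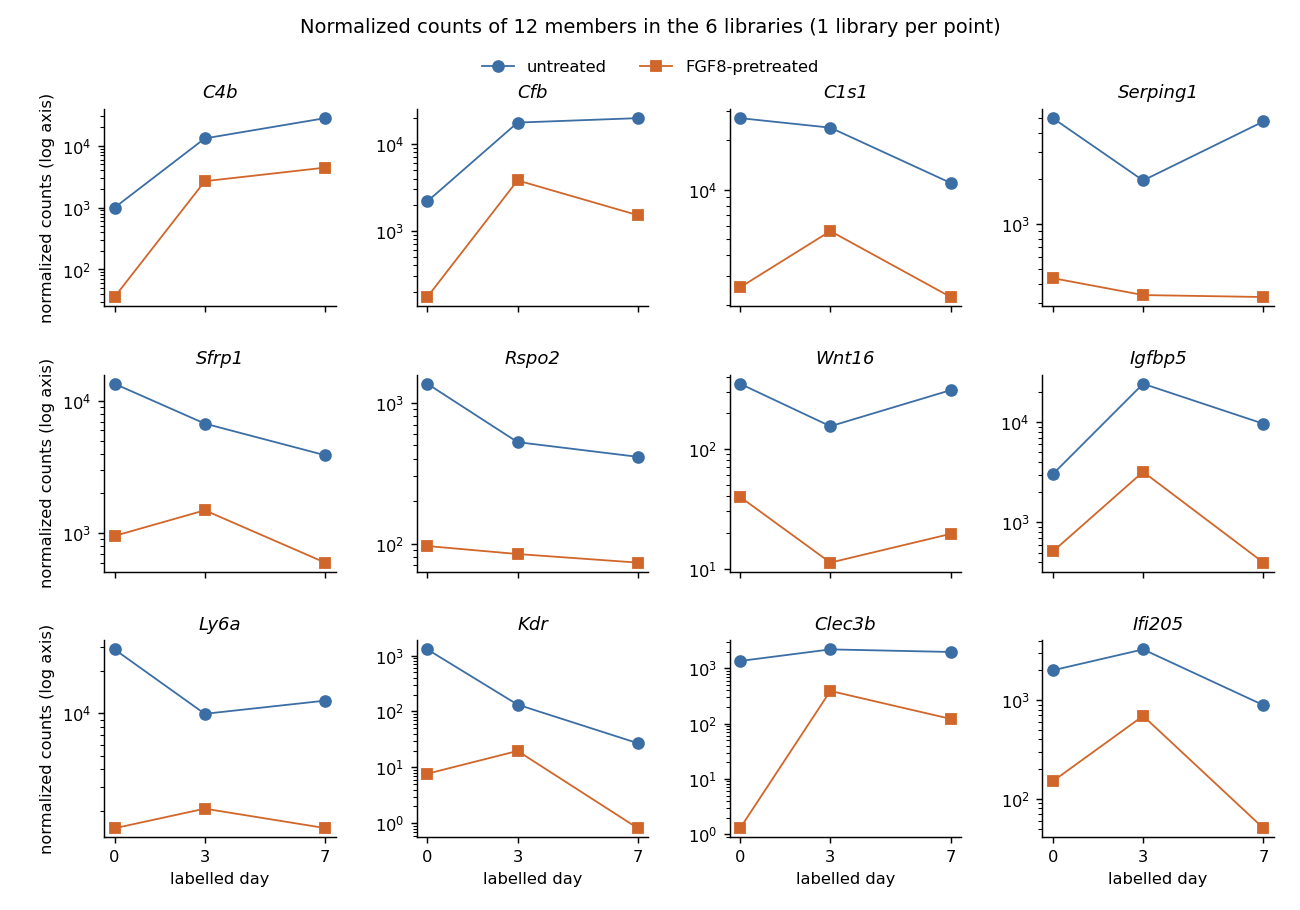
Normalized counts of 12 of the genes in untreated (circles) and FGF8-pretreated (squares) cells on the labelled days 0, 3 and 7, with 1 library per point and a log axis in each panel. FGF8 values lie below the untreated value of the same day in every panel, and in C4b, Cfb and Igfbp5 an FGF8 value exceeds the untreated value of another day.

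Interferon-inducible genes formed another group, with members of the p200 family, the immunity-related GTPases and the Schlafen family. Ifi205 (chr1:173839549-173859456) had 2008, 3269.6 and 890.1 normalized counts untreated and 151, 693 and 50.4 after FGF8. The untreated and the FGF8 libraries were both highest on day 3, and the drop of 17.7-fold (interval 13.7 to 23.2) on day 7 was the largest of the 3. Ifi208 had 80.8, 251 and 249 normalized counts untreated and 5.12, 46.3 and 34.1 after FGF8. Ifi213 had 22.03, 256 and 427 normalized counts untreated and 3.84, 59.0 and 37.4 after FGF8. Both had far lower values on day 0 than later, and the day 0 drop of Ifi213, from 3 FGF8 counts, was 5.74-fold (interval 1.62 to 30.9). The 3 genes lie on chromosome 1 between 173393846 and 173859456, with Ifi213 next to Ifi208 and 6 other tested genes between Ifi208 and Ifi205. Of 10 p200 genes tested, 4, 3 and 7 were at least 4-fold lower on days 0, 3 and 7. Over all genes tested the shares were 4.5%, 2.31% and 3.09%. The 3 p200 genes of the set are in each count by the rule, and are all of it on day 3. Other genes of the cluster differed less on most days: Ifi204 differed by -1.41, -1.24 and -2.04, and Ifi203 by -0.89, -1.30 and -2.12.

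Tgtp2, a GTPase that acts against intracellular parasites, had 1047, 588 and 336 normalized counts untreated and 46.1, 111 and 48.8 after FGF8. Its untreated level was lower on each later day, whereas the FGF8 level was highest on day 3. Gm12185, 64.9 kb away with 2 tested genes between, differed by -4.32, -2.23 and -3.32 log2. Tgtp1, a near-identical copy between them whose exons overlap those of Gm12185, differed by -4.72, -1.03 and -2.48, so how reads were split among these copies bears on each value. Slfn5, a Schlafen-family protein, had 2885, 2086 and 1854 normalized counts untreated and 251, 499 and 404 after FGF8, with the narrowest margin on day 3 at 4.18-fold (interval 3.83 to 4.57). Slfn5 was the 1 gene of the set among 60 classical interferon-stimulated genes tested. Of these, 38 were at least 4-fold lower on day 0, 2 on day 3 and 6 on day 7, with list medians of -2.42, -0.92 and -1.18. At least 2-fold lower were 58, 28 and 38 of the 60, against 11.4%, 12.9% and 9.75% of all genes. At 4-fold the shares of all genes were 4.5%, 2.31% and 3.09%. The counts include Slfn5 here and Tgtp2 in the list that follows. All 20 guanylate-binding proteins and immunity-related GTPases tested were at least 4-fold lower on day 0, as were 2 on day 3 and 7 on day 7, with medians of -3.65, -1.14 and -1.53, and 20, 12 and 14 were at least 2-fold lower.

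Chemokines were represented by 3 genes of chromosome 5. Cxcl5, which attracts neutrophils, had 423, 259.6 and 192 normalized counts untreated and 15.4, 48.4 and 14.6 after FGF8. Cxcl1, its neighbour with the same function, had 88.1, 364 and 234 normalized counts untreated and 19.2, 73.0 and 42.3 after FGF8. In both genes no FGF8 library reached an untreated one. In Cxcl5 the drop was largest on day 0 and in Cxcl1 the 3 drops lay within 0.30 log2 of each other. Cxcl13, which attracts B cells, had 17.6, 129.8 and 7.10 normalized counts untreated and 2.56, 25.3 and 0 after FGF8. With no FGF8 count on day 7, the floor of 3 counts gives Cxcl13 a 2.91-fold drop (interval from 1.96). That is short of the 4-fold that it passed through the added 1. Of 18 chemokines tested, 7, 7 and 12 were at least 4-fold lower on days 0, 3 and 7. Over all genes tested the shares were 4.5%, 2.31% and 3.09%, and the 3 chemokines of the set are in each count. Cxcl12, the most abundant chemokine tested, differed by -1.97, -1.73 and -2.82.

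Among the WNT pathway genes, Sfrp1, a secreted antagonist that binds WNT ligands, was the most abundant, with 13505, 6752 and 3891 normalized counts untreated and 955, 1492 and 600.0 after FGF8. The untreated level was lower on each later day and the FGF8 libraries all lay below the lowest untreated one. Rspo2, which strengthens WNT signaling through LGR receptors, had 1366, 526 and 413 normalized counts untreated and 96.0, 84.2 and 73.2 after FGF8. Wnt16, a WNT ligand, had 348, 154 and 308 normalized counts untreated and 39.7, 11.2 and 19.5 after FGF8. No FGF8 library of Rspo2 or Wnt16 reached an untreated one. Wnt16 was 1 of 5 genes in the set, with Sectm1a, Fgl2, Ly6c1 and Smoc2, that were at least 8-fold lower on every day. They are 0.0377% of genes tested. Of the 5, only the interval of Fgl2 stayed past 8-fold on every day, starting at 10.1-fold on day 3. The intervals of Wnt16 and Ly6c1 started at 6.02-fold and 7.92-fold on day 0. Those of Smoc2 and Sectm1a started at 4.59-fold on day 7 and 4.55-fold on day 3. Ccn5, a matricellular protein induced by WNT signaling, had 2443, 319 and 833 normalized counts untreated and 123, 49.8 and 150.4 after FGF8, with the largest drop on day 0. A ligand, an agonist and an antagonist of the pathway are thus in the set, whose genes the rule chose for being low. The list of WNT ligands and antagonists also holds Rspo2 and Ccn5, which are neither. Of 19 genes tested in it, 8, 4 and 6 were at least 4-fold lower on days 0, 3 and 7. Over all genes tested the shares were 4.5%, 2.31% and 3.09%. The 4 genes of the set are in each count, and are all of it on day 3. The list medians were -1.79, -1.29 and -1.18. Outside the set, Sfrp2 differed by -3.44, -1.53 and -2.11, Dkk2 by -0.50, 0.29 and -0.91, and Ccn4 by 0.11, -1.49 and -1.18.

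Growth factors and secreted carriers came next. Igfbp5, which binds insulin-like growth factors, had 3027, 24040.5 and 9608 normalized counts untreated and 513, 3191 and 398 after FGF8. Both treatments were highest on day 3, and the difference ran from 5.90-fold (interval 5.30 to 6.58) on day 0 to 24.2-fold (interval 22.1 to 26.5) on day 7. Apod, a lipid-binding lipocalin, had 9119, 7771 and 5462 normalized counts untreated and 266, 1349 and 485 after FGF8, and its largest drop was on day 0. Bmp4, which commits mesenchymal cells to the adipocyte lineage, differed by -3.91, -2.64 and -2.27 log2, but from 2 to 5 counts per FGF8 library, so that the day 3 ratio was 9.97-fold (interval 2.18 to 92.6). Tgfb2, a growth factor that promotes matrix production, differed by -2.67, -2.24 and -3.13 log2, and Sema3d, a secreted guidance cue, by -3.95, -2.45 and -3.25. Scg2, a granin of secretory granules, differed by -4.17, -4.18 and -2.18 log2, with the smallest drop on day 7, where the FGF8 level was its highest. Pdgfrl, a secreted protein similar to the PDGF receptor, differed by -2.78, -2.02 and -2.75 log2.

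Kdr and Tek encode receptors for VEGF and for angiopoietins. Kdr had 1288, 132 and 27.0 normalized counts untreated and 7.68, 19.7 and 0.813 after FGF8. Untreated cells held far more Kdr on day 0 than later. The drop was 168-fold (interval 76.7 to 458) on day 0, and that of day 7 rests on 1 FGF8 count. Tek had 326, 64.9 and 160.4 normalized counts untreated and 42.2, 9.83 and 25.2 after FGF8, and its 3 drops lay within 0.31 log2 of each other. Angpt4, a ligand of Tek, differed by -2.87, -2.09 and -3.38 log2 from at most 77.4 normalized counts. Both receptors are also markers of endothelial cells, and the whole list of 12 was read beside them. Of these, 4 passed the filter, and the list summed to 471 to 1952 normalized counts in untreated and 219 to 535 in FGF8 cells. The sums include Kdr and Tek, which the rule chose for being low, so lower sums after FGF8 are in part built in. On day 0 Kdr alone held 1288 of the untreated 1952. The others that passed were Egfl7, with differences of 0.51, 0.10 and -0.01, and Flt1, with 0.62, -2.95 and -1.86. Both of these were higher after FGF8 on day 0. Below the filter, Tie1 was at or below 0.710, Cdh5 at or below 8.96 and Pecam1 at or below 12.8 in every library.

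Matrix proteins and enzymes of matrix turnover were the largest group, with 13 genes. Dpt, a proteoglycan-binding matrix protein, had 5463, 9258 and 5021 normalized counts untreated and 521, 1893 and 679.6 after FGF8. All FGF8 libraries lay below the lowest untreated library, and both treatments were highest on day 3. Clec3b, the plasminogen-binding protein tetranectin, had 1362, 2208 and 1983 normalized counts untreated and 1.28, 391 and 122 after FGF8. With 1 count in the day 0 FGF8 library, its drop on that day was 1064-fold (interval 190.4 to 42054), and from 557 and 150 counts on days 3 and 7 it was 5.65-fold (interval 5.13 to 6.22) and 16.3-fold (interval 13.8 to 19.3). Mfap5, a protein of elastic fibre microfibrils, had 2701, 303 and 314 normalized counts untreated and 472, 16.8 and 35.8 after FGF8. Here the smallest drop was on day 0 and the largest on day 3, the reverse of most of the set. Smoc2, a SPARC-related calcium-binding protein, had 516, 196 and 51.1 normalized counts untreated and 7.68, 20.4 and 4.88 after FGF8. Its untreated level was lower on each later day, while the FGF8 level was highest on day 3. Col6a5, a collagen VI chain, had 719.7, 68.7 and 51.1 normalized counts untreated and 8.96, 13.3 and 1.63 after FGF8, with day 0 again the largest drop.

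Adamts5, an aggrecanase, had 7754, 6066 and 6064 normalized counts untreated and 959, 1489.5 and 1043 after FGF8. Its levels changed little over the days in both treatments. Adamtsl1, an ADAMTS-like protein without protease activity, had 1403, 1176 and 1232 normalized counts untreated and 44.8, 176 and 228 after FGF8, and its untreated level was nearly constant while its FGF8 level was lowest on day 0. Mmp27, a matrix metalloproteinase, had 83.7, 290.2 and 366 normalized counts untreated and 3.84, 51.9 and 43.1 after FGF8. Both treatments of Mmp27 were far lower on day 0 than later. Pamr1, a peptidase-domain protein, had 248, 67.5 and 68.9 normalized counts untreated and 34.6, 0 and 4.88 after FGF8. With no FGF8 count on day 3, the floor of 3 counts gives it a 32.0-fold drop (interval from 25.2) on that day. The other matrix genes were Fndc1, Cemip, which degrades hyaluronan, Cpz, a carboxypeptidase, and Itgbl1, with smallest drops between -2.71 and -2.08.

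In the lists for matrix genes, the genes at least 4-fold lower were counted on days 0, 3 and 7. They were 23, 13 and 16 of 50 matricellular and elastic fibre genes. Of 33 metalloproteinases, ADAMTS proteases and TIMPs, they were 12, 10 and 11. The shares of all genes tested were 4.5%, 2.31% and 3.09%, and each count includes genes of the set, 4 and 3 respectively. The 33 collagens had 11, 2 and 6 genes at least 4-fold lower, of which Col6a5 alone was low enough on all 3 days. The abundant fibrillar collagen Col1a1 differed by -2.40, -1.54 and -1.22. Among 10 F3-high stromal markers tested, 5, 3 and 4 were at least 4-fold lower, against 4.5%, 2.31% and 3.09% of all genes. Igfbp5 and Adamts5 of the set are in each count. At least 2-fold lower were 7, 8 and 6 of the 10, and 0, 1 and 0 were at least 2-fold higher. F3 itself differed by -0.83, -1.67 and -0.89, and Abcg1 by 0.90, 1.22 and 0.22. FGF feedback inhibitors and ERK target genes held none of the 62, and 0, 1 and 1 of 19 were at least 4-fold lower. On day 0, 10 of the 19 were at least 2-fold higher after FGF8 (7.61% of all genes tested were) and 1 was at least 2-fold lower. The list medians were 1.19, 0.22 and -0.22 on days 0, 3 and 7.

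**Figure D3:**
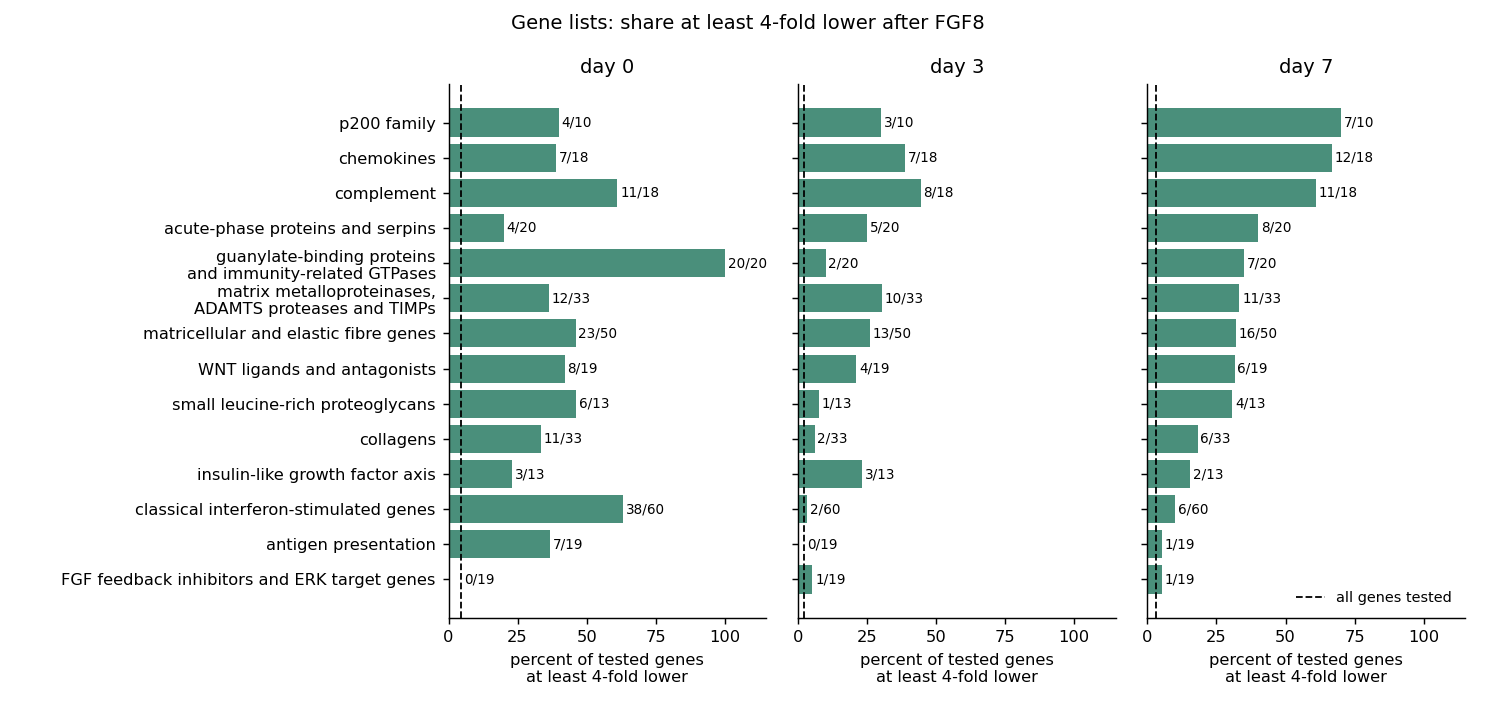
Share of the tested genes of 14 lists that were at least 4-fold lower after FGF8 on each day, in percent, with the number lower over the number tested beside each bar. The dashed line is the share among all genes tested (4.5%, 2.31% and 3.09%). Low on days 0, 3 and 7 were 38, 2 and 6 of 60 classical interferon-stimulated genes and 11, 8 and 11 of 18 complement genes. Genes of the set, which the rule chose for being low, are counted in their lists.

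At the cell surface, Ly6a (chr15:74863840-74869880), which encodes the stem cell antigen SCA-1 of stromal progenitors, had 28641, 9937 and 12335 normalized counts untreated and 1516, 2092 and 1520.2 after FGF8. The FGF8 libraries lay within a narrow band, below the lowest untreated library. Ly6c1, a neighbour with a gap of 46.0 kb, had 1504, 1213 and 2015 normalized counts untreated and 157, 114 and 61.8 after FGF8. In untreated cells Ly6c1 was highest on day 7 and after FGF8 it was lowest on day 7, where the drop was 32.6-fold (interval 26.0 to 41.5). Adgrd1, an adhesion G protein-coupled receptor, had 601, 461 and 806 normalized counts untreated and 74.3, 35.1 and 94.3 after FGF8. Both treatments of Adgrd1 were lowest on day 3, without overlap. Sectm1a, a secreted and transmembrane protein, had 69.0, 14.0 and 46.1 normalized counts untreated and 1.28, 0 and 2.44 after FGF8. No FGF8 count of Sectm1a exceeded 3, and with none on day 3 the floor gives a 6.65-fold drop (interval from 4.55) there. Anpep, the aminopeptidase CD13, differed by -3.33, -2.88 and -2.03 log2, a drop that was smaller on each later day, as was the untreated level. Ildr2 and Opcml, a cell adhesion molecule of neurons, had smallest drops of -2.11 and -2.37. Of 11 stromal identity markers tested, 2, 2 and 6 were at least 4-fold lower on days 0, 3 and 7, each time with Ly6a. Of 10 interstitial progenitor markers, 2, 2 and 4 were, each time with Ly6c1. The shares over all genes tested were 4.5%, 2.31% and 3.09%.

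Enzymes completed the set. Gpx3, the secreted glutathione peroxidase, had 3182, 5012 and 7386 normalized counts untreated and 259.9, 1093 and 1603 after FGF8. Both treatments were higher on each later day, and the drop was 4.59-fold (interval 4.32 to 4.87) on day 3 and 4.61-fold (interval 4.39 to 4.84) on day 7. Most of the exon bases of Gpx3 (85.0%) overlap Tnip1 on the opposite strand, which differed by -1.13, -0.82 and -0.23. Inmt, an indolethylamine methyltransferase, had 22.03, 111 and 183 normalized counts untreated and 0, 15.4 and 15.4 after FGF8. Ces2e, a carboxylesterase, had 13.2, 96.7 and 34.1 normalized counts untreated and 0, 12.6 and 2.44 after FGF8. Neither had an FGF8 count on day 0. The floor of 3 counts gives drops of 5.74-fold (interval from 4.12) for Inmt and 3.44-fold (interval from 2.26) for Ces2e. The latter is again short of 4-fold. Cyp7b1, the oxysterol hydroxylase, differed by -2.88, -2.26 and -3.98 log2 from an untreated level of 895 to 967 normalized counts. Atp8b1, a phospholipid flippase, differed by -2.21, -2.86 and -3.59 log2, with a larger drop on each later day. Galnt17, a glycosyltransferase, differed by -2.38, -2.29 and -2.77, and Arsi, an arylsulfatase, by -3.86, -2.06 and -3.37.

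Among the remaining genes, Mlana, a melanosomal antigen, had 22.03, 131 and 17.0 normalized counts untreated and 0, 1.40 and 1.63 after FGF8. Its FGF8 libraries had at most 2 counts, so the day 3 ratio was 93.4-fold (interval 25.2 to 781). Vdr, the vitamin D receptor, differed by -3.40, -2.89 and -2.41 log2 and was highest on day 3 in both treatments. Ctla2a, a cysteine protease inhibitor, differed by -2.90, -2.80 and -2.74 log2, the steadiest difference of the set with a spread of 0.16 between days. A spread of at most 1 log2 between days was seen in 15 genes and a larger one in 47.

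By place of action, 32 of the 62 genes were assigned to extracellular proteins, 10 to cell surface proteins and 11 to intracellular ones. The 9 not assigned include Fgl2, Mmp27, Pdgfrl and Sectm1a. The same shares were not taken over all genes tested, so these counts do not set the 62 genes apart. All 62 are protein-coding, as were 95.5% of the tested genes with an annotated position. Per kilobase of exon, the highest untreated level of the set was that of C1s1 at 7809.8 normalized counts on day 0, followed by Ly6a at 6165 on day 0, Cfb at 5795 and C4b at 4630.2 on day 7 and Igfbp5 at 4003 on day 3. Opcml was the lowest, with at most 14.8. Chromosomes 1 and 5 held 9 genes each, 1.22% and 1.09% of the genes tested there, and 8 pairs of neighbours lay within 1000 kb. No count of such pairs was taken over all genes tested, and some pairs, such as C1s1 and C1s2, are close copies.

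Over the days the median course of the 62 genes was not the same in untreated and in FGF8 cells, as far as 1 library per point shows. The rule used all 6 libraries, so these changes are descriptions as well. In untreated cells the median change was -0.42 log2 from day 0 to day 3 and -1.08 from day 0 to day 7, with 24 and 32 of the 62 at least 2-fold lower (14.7% and 18.8% of all genes tested). In FGF8 cells it was 1.07 from day 0 to day 3, with 32 at least 2-fold higher (25.2% of all genes). From day 0 to day 7 the FGF8 median was -0.031, which became 0.057 with TMM factors and -0.30 with total counts, so it has no set direction. The untreated level was highest on day 0 for 37 genes, while the FGF8 level was highest on day 3 for 33.

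From day 3 to day 7, a step that uses no day 0 library, the medians were -0.11 in untreated and -0.64 in FGF8 cells. At least 2-fold lower were 19 genes in untreated cells (4.5% of all genes tested) and 28 in FGF8 cells (6.18%). Across the 62 genes the changes of this step in untreated and FGF8 cells had a Pearson r of 0.75 and a Spearman rho of 0.77, where all 13256 genes gave 0.77 and 0.69. These coefficients are across genes, which are not independent. On this step none of the 62 genes changed at least 2-fold in opposite directions in the 2 treatments (0.151% of all genes tested did), against 4 from day 0 to day 3 (0.581%) and 2 from day 0 to day 7 (0.536%). Cxcl13 had the largest decrease in both, with changes of -4.01 and -4.72 log2, the latter ending at 0 counts. In FGF8 cells Pamr1, Sectm1a, Ccn5 and Scg2 had the largest increases, of 2.56, 1.78, 1.57 and 1.55 log2. Pamr1 rose from 0 to 6 counts and Sectm1a from 0 to 3, so the added 1 sets the size of their increases.

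**Figure D4:**
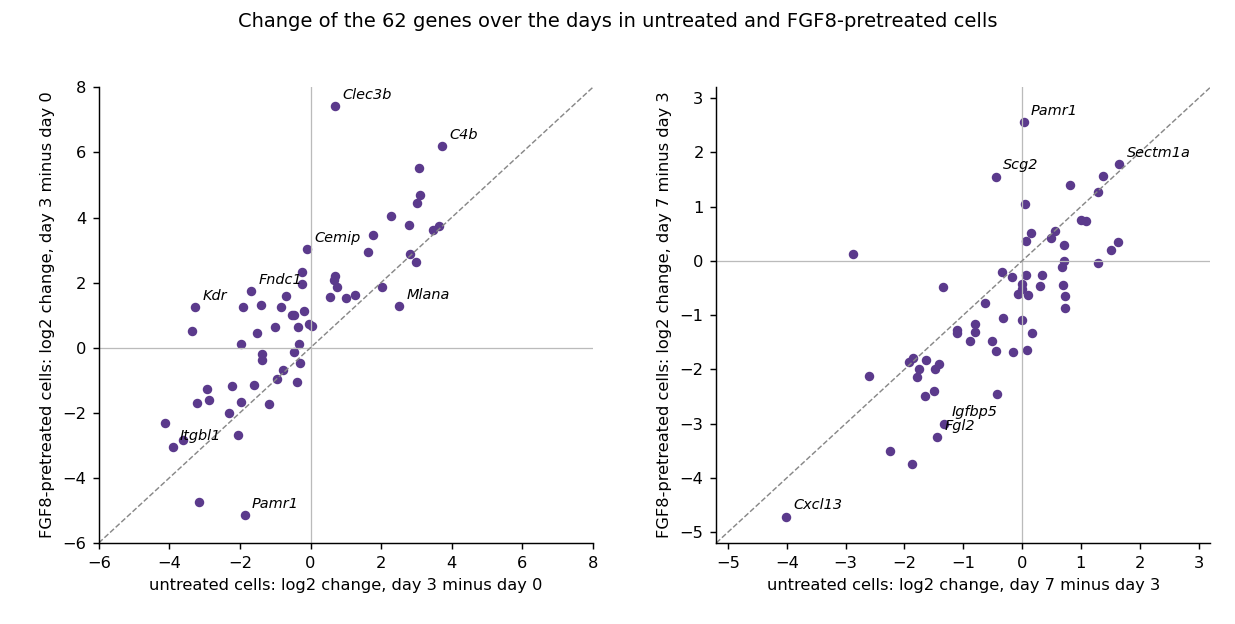
Change of the 62 genes over the days, as log2 differences between libraries, in untreated cells (horizontal axis) and FGF8-pretreated cells (vertical axis), from day 0 to day 3 on the left and from day 3 to day 7 on the right. Points on the dashed line changed alike. On the left Clec3b and C4b lie highest on the axis of FGF8 cells, and on the right Cxcl13 lies lowest on both axes.

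Across the promoters, the interferon-stimulated response element core was in 19.5% of the 41 promoters of the set and in 7.12% of the 13374 promoters of all tested genes, and a GAS element (TTCNNNGAA) in 19.5% and 6.79%. A TATA box (TATAAA) was in 36.6% against 7.25%, and a GC box (GGGCGG) in 36.6% against 62.1%. The median number of CG dinucleotides was 6 in the promoters of the set and 20 in those of all tested genes. The TEAD motif (GGAATG) was in 19.5% against 12.2%, the NF-kB consensus in 7.32% against 5.28% and AP-1 (TGANTCA) in 7.32% against 5.20%. The ETS motif CCGGAAGT and the serum response factor CArG box were in none of the 41, against 7.80% and 1.31%, which says only that these letters are not in this window. Both strands were read, motifs may overlap one another, and genes with a copy next to them count more than once.

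**Figure D5:**
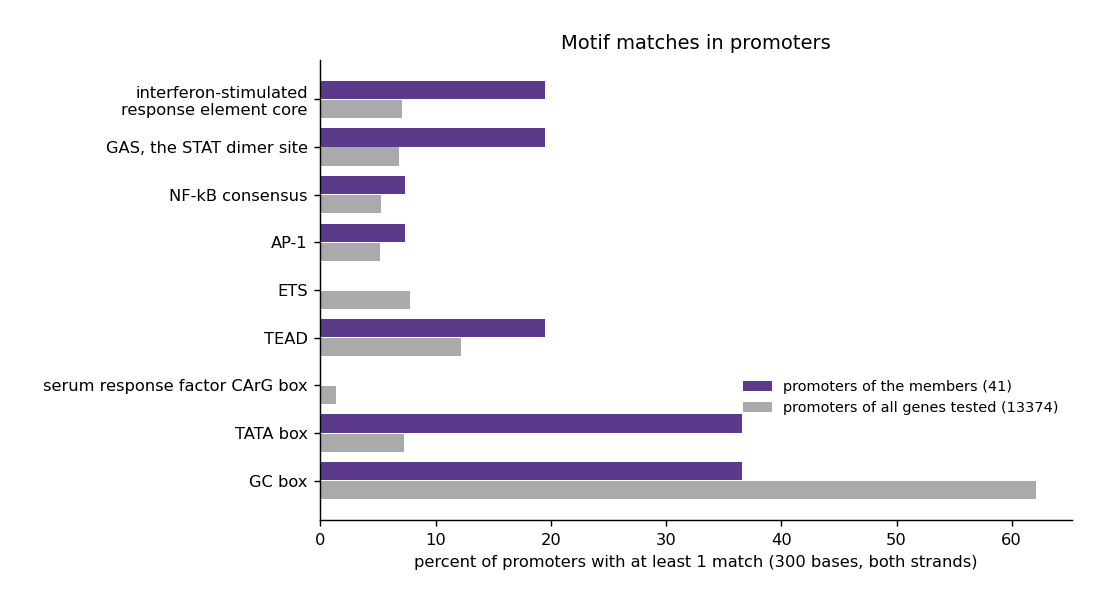
Percent of promoters (250 bases before to 50 after the start, both strands) with at least 1 match to each of 9 motifs, for the 41 promoters of the set (dark) and the 13374 promoters of all tested genes (grey). TATA boxes are in 36.6% and 7.25%, and GC boxes in 36.6% and 62.1%.

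Several values could hold reads of another gene. The kit was stranded, but the sources used here give neither the strand used in counting nor the treatment of multiply matching reads. Exons of Cfb overlap Nelfe on the opposite strand over 49.8% of their bases, those of Itgbl1 overlap Fgf14 over 42.1% and those of Pdgfrl overlap Mtus1 over 20.9%. Nelfe differed by 0.33, 0.28 and 0.34 and Mtus1 by -1.73, 0.60 and -0.03. C4b has a near-identical copy in C4a, which differed by -1.49, -0.25 and -0.15 from at most 88.7 normalized counts, and Ly6c1 and Ctla2a have close copies in Ly6c2 and Ctla2b, with at most 7.81 and 20.4.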

How the data were processed

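RNA of 6 libraries of immortalized mouse brown preadipocytes, untreated or pretreated with FGF8 and harvested on the labelled days 0, 3 and 7, was sequenced as paired-end reads from a stranded mRNA kit. The authors trimmed the reads with Trim Galore, aligned them to GRCm39 (mm39) with HISAT2, summarized them per gene with featureCounts, and deposited raw read counts per gene and library without normalization. Not given in the sources used here are tool versions, annotation, strand setting and how multiply matching reads were treated. Groups came from the sample labels.

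Normalization used size factors by the median-of-ratios method, taken over the 6 libraries with DESeq2 1.42.0 (R 4.3.3). A pseudocount of 1 was added before log2, genes needed a mean of at least 20 normalized counts, and the threshold was a log2 difference of -2 on each of the 3 days. Ratios carry 95% exact intervals (scipy 1.17.1), and a count of 0 was given a floor of 3 counts. The deposited counts total 16403254 to 38551551 per library, which leaves wide intervals for genes with few counts. Positions came from GENCODE M39 (GRCm39), where all 62 genes were found. Levels per kilobase of exon were used to compare C1s1 with C1s2 and to give the highest and lowest levels of the set. Elsewhere counts were not divided by exon length, as in marker sums and where a gene is called the most abundant or chosen by level. Every statistic with 1 library per group is a description, and no test was run. The steps were checked on simulated data.

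The 62 genes, the gene lists and the promoter motifs were chosen with earlier results of these data known. Of the set, 60 genes are named, and the values of the other 2 are not reported here. Values in all 6 libraries are given for 39: the 10 with the largest smallest-of-3-days drop, the 10 with the highest untreated level, and those in a gene list. Groups by function were made after the genes were seen, and other genes named are the most abundant of a list, the nearest to the threshold, overlapping or copied genes, endothelial markers, and Xist, Ifi202b, Gbp2b and Y-linked genes chosen after their values were seen. Alternatives were TMM factors (edgeR 4.0.16), total counts, size factors within each day's pair, pseudocounts of 0.5 and 5, other filters, fold thresholds and choices of days, a rule on the intervals, and, chosen after seeing the data, leaving out the day 0 libraries and the change from day 3 to day 7.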

Additional observations from a re-analysis of the deposited data

Results flagged for a closer look

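In 6 cases a gene of the set moved at least 2-fold one way over the days in FGF8-pretreated cells and at least 2-fold the other way in untreated cells. With 1 library per point the difference between treatments was not tested in any of them, and all 6 use the day 0 libraries, which stood apart in Xist, Ifi202b and Gbp2b. From day 0 to day 3, Fndc1, a fibronectin-domain matrix protein, changed by 1.75 log2 in FGF8 cells and by -1.69 in untreated cells. Smoc2 changed by 1.30 in FGF8 cells and by -1.39 in untreated cells over the same days. Kdr changed by 1.25 in FGF8 cells and by -3.27 in untreated cells. Opcml also changed by 1.25 in FGF8 cells, where untreated cells changed by -1.91. From day 0 to day 7, Fndc1 changed by 2.16 in FGF8 cells and by -1.20 in untreated cells, and Cemip by 1.77 and -1.21. From day 3 to day 7, with no day 0 library, none of the 62 genes did so. Of all 13256 genes tested, 77 met the same rule from day 0 to day 3, 71 from day 0 to day 7 and 20 from day 3 to day 7.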

How the results depend on the processing

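The size of the set, 62, followed the rule more than the scaling. It was 502 at 2-fold and 5 at 8-fold. With only 2 days in the rule it was 151 for days 3 and 7, 169 for days 0 and 7, and 95 for days 0 and 3, and 35 when the interval had to lie below 4-fold on all 3 days. Without the day 0 libraries, an alternative chosen after seeing the data, it was 149. Other settings stayed within 1.5 times: 66 with TMM factors (61 shared with the 62, Anpep lost), 72 with total counts, 70 with factors within each pair, 65 and 47 with pseudocounts of 0.5 and 5, 49 with a mean of at least 100, 50 with the filter on each pair, and 77 with no filter. With no filter, the single-day sets were 907 (day 0), 565 (day 3) and 708 (day 7), and with a mean of at least 100 those of days 3 and 7 were 194 and 253. The other 71 values kept their direction and size within these limits, except that the day 0 to day 7 median of FGF8 cells, near 0, changed sign with TMM factors, and 17 of 930 single-gene values moved beyond their interval. Total counts moved the day 3 median of all genes from 0.073 to -0.032. A fit of treatment with day as a block was not run, since the rule that chose the genes used all 6 libraries, and the labels carry no replicate numbers. Depth limits the 25 genes with fewer than 10 counts in an FGF8 library.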
